A study of Mus musculus with 14 samples.

Results

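Genes of homologous recombination and DNA repair were measured in mammary epithelial cells (MECs) of mice that overexpress Usp22, the deubiquitinase of the SAGA histone-modifying complex. The members were a list of 46 repair genes, chosen by gene symbol, and all 46 were among the 16124 genes of the expression table. They were divided from general knowledge into 19 proliferation-linked genes, whose transcripts are known to peak when cells copy their DNA, and 27 constitutive genes, which are known to be expressed also outside the cell cycle. The samples were 7 WT and 7 Usp22 OE/OE nulliparous females aged 3.5 months, with 1 RNA-seq library per mouse, and each OE/OE mouse was compared with its WT littermate (pairs 1, 3, 4, 5, 6, 7 and 8). OE/OE mice are homozygous for a FLAG- and MYC-tagged Usp22 cDNA placed at ROSA26 behind the CAGGS promoter and a loxP-flanked STOP cassette. The cassette was removed by ZP3-Cre, which acts in the oocyte, so the transgene is active in every tissue, stroma and immune cells included, and not only in the epithelium.

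Repair genes fall into pathways that each act on one kind of lesion. Homologous recombination rebuilds a broken chromosome from the sister copy and is available only after replication, whereas nonhomologous end joining ligates broken ends at any stage of the cell cycle. Base excision, nucleotide excision and mismatch repair act on damaged or mispaired bases, and the checkpoint kinases hold the cell cycle while repair proceeds. In the mammary gland, inherited loss of BRCA1, BRCA2 or PALB2 is a well-known cause of breast cancer. Repair at breaks also depends on ubiquitin chains laid on histones. Usp22 removes ubiquitin from histones and from other proteins, but whether it acts on the marks at breaks was not tested here.

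Promoters of members from both classes held the same short motifs. The 250 bases before the RefSeq start (GRCm38.p6) were searched on both strands for TTCCCGC or TTGGCGC, the letters bound by E2F, the factor that drives S-phase genes, and for CCAAT, the box bound by NF-Y. A window was found for 16 of the 19 proliferation-linked and 22 of the 27 constitutive members. The E2F letters occurred for 5 of these 16 proliferation-linked members (31.25%) and 7 of these 22 constitutive members (31.8%), beside 6.45% of all 27025 genes with a window. CCAAT occurred for 8 of 16 and 13 of 22 members, beside 37.5% of all genes with a window. TTTGAA, the CHR element of G2 genes, occurred for 1 of 16 and 1 of 22, beside 18.3%. TTGGCGC and CCAAT can overlap on opposite strands, as they do in Ercc2. The windows below are shown because the first 3 genes belong to the class whose levels moved most between mice, while Rnf168 was the member that moved least; capitals mark the E2F letters or their reverse complement in Bard1, Brca2 and Rnf168, and CCAAT on the other strand in Brip1.
Bard1 (chr1:71102973-71103222, minus strand): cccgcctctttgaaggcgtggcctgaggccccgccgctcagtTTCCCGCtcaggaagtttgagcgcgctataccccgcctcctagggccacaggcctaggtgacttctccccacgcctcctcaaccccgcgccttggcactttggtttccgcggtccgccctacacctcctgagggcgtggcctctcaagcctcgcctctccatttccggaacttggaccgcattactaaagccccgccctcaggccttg
Brca2 (chr5:150522371-150522620, plus strand): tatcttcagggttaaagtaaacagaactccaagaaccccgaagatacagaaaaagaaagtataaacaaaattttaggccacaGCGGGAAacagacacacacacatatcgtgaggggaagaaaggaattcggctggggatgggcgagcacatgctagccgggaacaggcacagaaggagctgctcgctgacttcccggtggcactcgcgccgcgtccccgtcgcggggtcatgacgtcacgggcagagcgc
Brip1 (chr11:86201194-86201443, minus strand): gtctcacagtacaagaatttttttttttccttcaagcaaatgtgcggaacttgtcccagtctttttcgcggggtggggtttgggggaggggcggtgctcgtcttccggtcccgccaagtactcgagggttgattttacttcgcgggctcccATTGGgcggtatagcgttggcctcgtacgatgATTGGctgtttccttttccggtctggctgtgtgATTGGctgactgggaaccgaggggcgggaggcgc
Rnf168 (chr16:32277211-32277460, plus strand): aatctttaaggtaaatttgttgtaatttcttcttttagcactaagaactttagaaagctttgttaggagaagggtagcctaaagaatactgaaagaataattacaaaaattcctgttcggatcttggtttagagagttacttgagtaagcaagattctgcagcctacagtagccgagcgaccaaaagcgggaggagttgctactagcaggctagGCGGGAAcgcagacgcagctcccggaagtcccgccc

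The E2F letters thus stood in Bard1 and Brca2 as well as in Rnf168, and Brip1 had none in this window but 3 CCAAT boxes. A match only describes the letters.

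The libraries held between 20125106 and 41835978 fragments counted on genes, and values are given as normalized counts, the fragments divided by the authors' size factor for that library. Usp22 lay between 3500 and 5380 normalized counts in WT mice and between 74948 and 144288 in OE/OE mice, so no library went against its genotype. All markers of mammary epithelium were detected in every library, with the summed level of 7 pan-epithelial genes between 281181 and 577812. Markers of fibroblasts, adipocytes, endothelial cells, macrophages and, at a low level, lymphocytes were detected too, none at 0 in any library, so the preparations were not pure. In such bulk samples, fewer cells of a type and less RNA per cell cannot be told apart. Replicates are separate mice.

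Expression of the repair genes was first compared between the genotypes within littermate pairs. Of the 46 members, 1 was called (2.17%), which here means that limma, with the pair as a block, gave an unadjusted p no greater than 0.05, beside 614 of all 16124 genes (3.81%; 1.85% lower and 1.95% higher in OE/OE). That member was Rad51c, lower in OE/OE. No member had an adjusted p under 0.05, as 0.0124% of all genes did, and no member changed the same way in all 7 pairs, beside 1.51% of all genes. The median log2 ratio of OE/OE over WT was 0.00029 in the proliferation-linked class and -0.0012 in the constitutive class, beside -0.0015 over all genes. The classes differed in how closely these ratios were measured. The median standard error was 0.27 in the proliferation-linked class and 0.11 in the constitutive class, and fitted ratios ran from -0.39 to 0.22 in the former and from -0.26 to 0.15 in the latter. For all 27 constitutive members the 95% interval of the ratio lay within a 1.5-fold change either way, beside 68.8% of all genes, and the outermost limits were -0.58 and 0.44. The same held for 6 of the 19 proliferation-linked members, whose limits reached -1.14 and 1.57, and the interval reached past a 2-fold change for 7 of them.

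**Figure D1:**
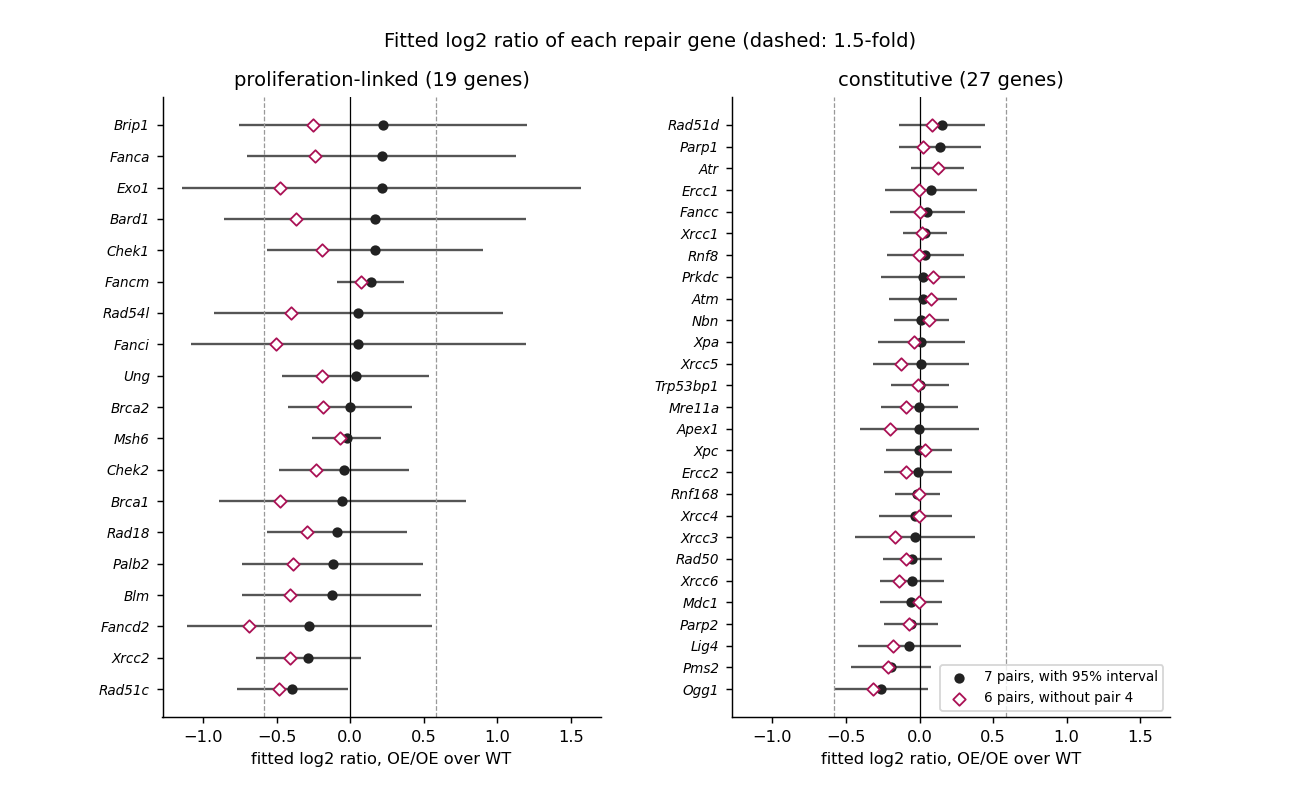
Fitted log2 ratio of OE/OE over WT for each of the 46 members (x axis), by class; filled points with bars are the ratio over 7 pairs with its 95% interval, open diamonds the ratio over the 6 pairs without pair 4, and dashed lines mark a 1.5-fold change. The constitutive intervals all lie between the dashed lines. In the proliferation-linked class 18 of 19 diamonds lie below 0, where pair 4, the highest pair for all 19, is left out.

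The homologous recombination mediators Brca1, Bard1, Palb2, Brca2, Brip1 and Rad54l were all proliferation-linked, and none was called. Brca1 (chromosome 11, 101488764 to 101551955, minus strand, GRCm38), which with its partner Bard1 forms the ubiquitin ligase that starts recombination, had between 57.4 and 325 normalized counts in WT (median 125) and between 82.5 and 323 in OE/OE (median 99.2). The lowest WT mouse and the highest OE/OE mouse were littermates, those of pair 4, and the groups overlapped over nearly their whole range. The fitted log2 ratio of Brca1 was -0.05 with a standard error of 0.37 (exact sign-flip p = 0.922), and its pairs ran from -1.13 to 2.47. Brca2 (chromosome 5, 150522630 to 150570329, plus strand), the protein that loads the recombinase onto single-stranded DNA, had between 92.8 and 328 normalized counts in WT (median 164) and between 136 and 261 in OE/OE (median 181). Its log2 ratio was 0.00029 with a standard error of 0.19 (exact sign-flip p = 1.00), and its pairs ran from -0.51 to 1.10. Rad54l (chromosome 4, 116094264 to 116123690, minus strand), a motor protein of the recombinase filament, had between 27.5 and 128 normalized counts in WT (median 62.9) and between 25.4 and 241 in OE/OE (median 44.3). Both mice of the widest pair ratio, 2.81, were again those of pair 4, and the other 6 pairs of Rad54l ran from -1.51 to 0.65. The fitted ratio of Rad54l was 0.06 with a standard error of 0.44 (exact sign-flip p = 0.938). Bard1, Brip1 (a helicase bound to Brca1) and Palb2 (the bridge between Brca1 and Brca2) had fitted ratios of 0.17, 0.22 and -0.12, with standard errors of 0.46, 0.44 and 0.27. Bard1 showed the same picture per mouse, with 247 normalized counts in the OE/OE mouse of pair 4 and between 16.3 and 59.5 in the other 6 OE/OE mice.

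Rad51c (chromosome 11, 87376645 to 87404954, minus strand; ENSMUSG00000007646.13), a paralog of the recombinase that helps to build its filament, was the member that was called. It had between 56.9 and 92.8 normalized counts in WT (median 76.7) and between 28.1 and 104 in OE/OE (median 52.9), from 31 to 108 fragments per library. Its log2 ratio was -0.39 with a standard error of 0.17 (limma, unadjusted p = 0.0443, adjusted p = 1.00). It was lower in 6 of 7 pairs, by up to 0.99 in pair 7, and higher by 0.16 in pair 4, for an exact sign-flip p of 0.0312 (two-sided; 7 pairs cannot give less than 0.0156). The groups overlapped, since the OE/OE mouse of pair 4 was above every WT mouse. The call of Rad51c was lost in edgeR, in DESeq2, without the pair as a block, with the pan-epithelial score as a covariate, and when any pair other than pair 4 was left out, with ratios between -0.48 and -0.29 over the pairs left out. Xrcc2 (chromosome 5, 25689812 to 25705825, minus strand), another paralog of this group, had between 80.1 and 123 normalized counts in WT (median 93.1) and between 55.1 and 113 in OE/OE (median 84.1). It too was lower in 6 of 7 pairs and higher in pair 4, with a log2 ratio of -0.28 and a standard error of 0.16 (exact sign-flip p = 0.0781). The other paralogs, Rad51d and Xrcc3, had ratios of 0.15 and -0.03 and were lower in 3 and 4 of the 7 pairs.

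**Figure D2:**
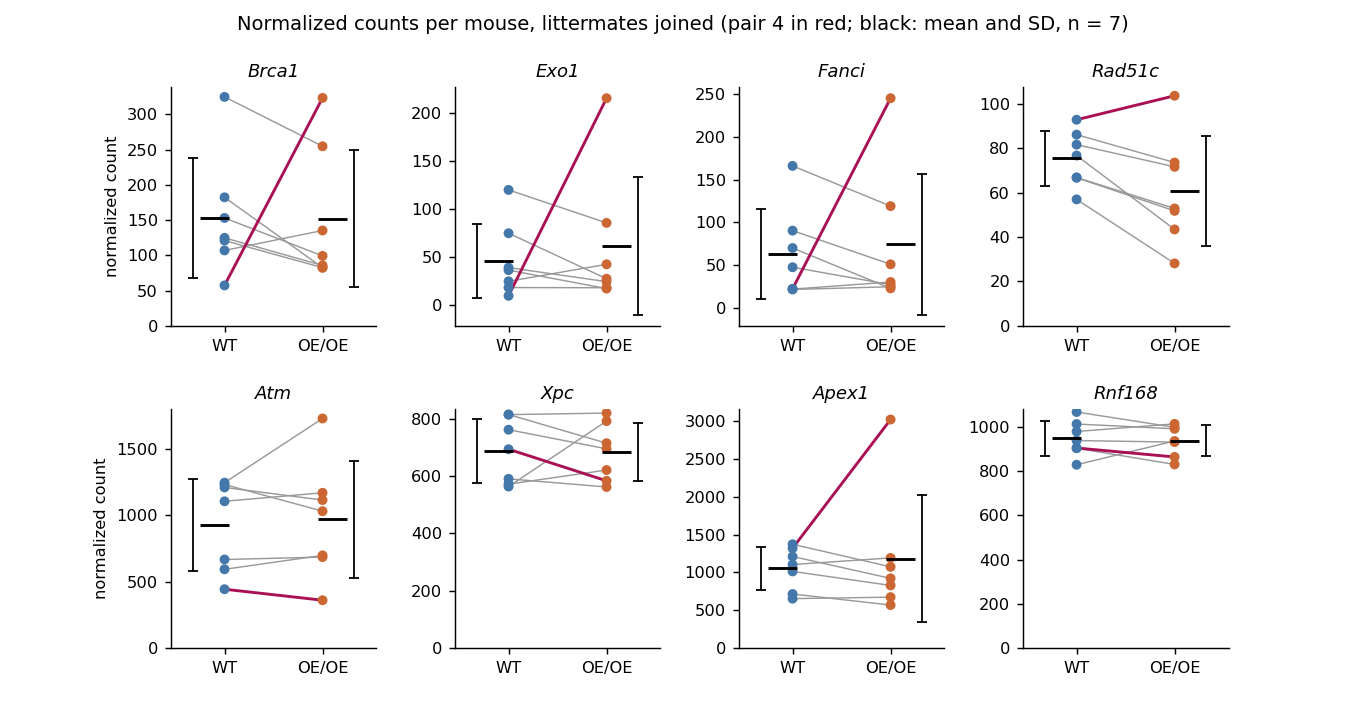
Normalized counts of 8 members in each mouse (y axis, linear), WT at the left and OE/OE at the right of each panel, with littermates joined, pair 4 in red, and the mean and SD of 7 mice in black. In Brca1, Exo1 and Fanci pair 4 rises from among the lowest WT mice to the highest OE/OE mouse, Rad51c is lower in OE/OE in every other pair, and Xpc and Rnf168 stay within a narrow range.

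The Fanconi anemia genes repair crosslinked DNA strands, and 4 of the 5 members were proliferation-linked. Fanci (chromosome 7, 79391929 to 79450264, plus strand), which is ubiquitinated with its partner Fancd2 at the crosslink, had between 21.4 and 166 normalized counts in WT (median 47.4) and between 22.6 and 246 in OE/OE (median 30.1). Its pair ratios ran from -1.59 in pair 3 to 3.42 in pair 4, and the fitted ratio was 0.06 with a standard error of 0.51 (exact sign-flip p = 0.969). Fancd2 was lower in 5 of 7 pairs, at a ratio of -0.28 with a standard error of 0.37. Fanca, of the core complex that carries out the ubiquitination, had a ratio of 0.21 with a standard error of 0.41. Fancm (chromosome 12, 65075603 to 65132058, plus strand), the motor protein that recognizes the crosslink, differed from these in its spread. It had between 180 and 561 normalized counts in WT (median 369) and between 258 and 617 in OE/OE (median 407), and was higher in 6 of 7 pairs by 0.02 to 0.56. The fitted ratio of Fancm was 0.14 with a standard error of 0.10 (exact sign-flip p = 0.141). Fancc, the constitutive member of this pathway, had a ratio of 0.05 with a standard error of 0.11.

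Among the genes that sense and trim broken ends, Exo1 (chromosome 1, 175880581 to 175913489, plus strand), the exonuclease of long-range resection, varied most of all 46 members. It had between 9.72 and 120 normalized counts in WT, a 12.4-fold range (median 36.5), and between 17.3 and 216 in OE/OE (median 27.5). The lowest WT mouse, with 11 fragments, and the highest OE/OE mouse were those of pair 4, a pair ratio of 4.34, while the other 6 pairs ran from -1.41 to 0.76. The fitted ratio of 0.21 had a standard error of 0.60 (exact sign-flip p = 0.906). Blm, the helicase that unwinds recombination intermediates, had a ratio of -0.12 with a standard error of 0.27. The MRE11 complex, which binds the broken end and recruits Atm, was steadier. Mre11a, Rad50 and Nbn had ratios of -0.0012, -0.05 and 0.01 with standard errors of 0.12, 0.09 and 0.09, and Nbn differed only 1.26-fold between the lowest and the highest WT mouse.

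The checkpoint kinases were split between the classes. Atm (chromosome 9, 53439149 to 53536740, minus strand), the kinase activated by double-strand breaks, had between 443 and 1246 normalized counts in WT (median 1106) and between 360 and 1730 in OE/OE (median 1031). Here both mice of pair 4 were the lowest of their genotype and both mice of pair 5 were the highest. The fitted ratio of Atm was 0.02 with a standard error of 0.10 (exact sign-flip p = 0.844), and its pairs ran from -0.30 to 0.47. Chek1 (chromosome 9, 36708482 to 36727065, minus strand), the kinase downstream of Atr that restrains mitosis, had between 41.5 and 111 normalized counts in WT (median 84.1). In OE/OE it had 214 normalized counts in the mouse of pair 4 and between 63.1 and 82.0 in the other 6. Its ratio was 0.17 with a standard error of 0.33 (exact sign-flip p = 0.875). Atr, the kinase of stalled replication forks, was higher in 6 of 7 pairs with a ratio of 0.12 and a standard error of 0.08 (exact sign-flip p = 0.0938), and Chek2, a kinase downstream of Atm, had a ratio of -0.04 with a standard error of 0.20.

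Rnf8 and Rnf168, the ubiquitin ligases that mark chromatin around a break, and Mdc1 and Trp53bp1, the scaffold proteins that act with these marks, showed no call in OE/OE. Rnf8 (chromosome 17, 29614790 to 29644991, plus strand) had between 91.2 and 180 normalized counts in WT (median 136) and between 105 and 218 in OE/OE (median 126), with a log2 ratio of 0.04 and a standard error of 0.12 (exact sign-flip p = 0.641). Rnf168 (chromosome 16, 32277459 to 32301434, plus strand) had between 830 and 1069 normalized counts in WT (median 939) and between 831 and 1015 in OE/OE (median 937). Its 7 pair ratios stayed between -0.12 and 0.18, the narrowest range of all members, around a fitted ratio of -0.01 with a standard error of 0.07 (exact sign-flip p = 0.734; 95% interval -0.17 to 0.14). Trp53bp1 and Mdc1, with mean WT levels of 2613 and 2378 normalized counts, had ratios of 0.0042 and -0.06. Rad18, a ubiquitin ligase of damage bypass, had a ratio of -0.09 with a standard error of 0.21.

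All 5 end joining members were constitutive. Xrcc5 (chromosome 1, 72307421 to 72394952, plus strand), the larger subunit of the Ku ring that caps DNA ends, had between 512 and 780 normalized counts in WT (median 724) and between 486 and 1269 in OE/OE (median 656). Its pairs ran from -0.50 to 0.80, the highest being pair 4, with a fitted ratio of 0.0080 and a standard error of 0.15 (exact sign-flip p = 0.938). Lig4 (chromosome 8, 9969049 to 9977686, minus strand), the ligase of this pathway, had between 168 and 281 normalized counts in WT (median 204) and between 130 and 305 in OE/OE (median 205). Its ratio was -0.07 with a standard error of 0.16 (exact sign-flip p = 0.672), with pairs from -0.65 to 0.58. Xrcc6 (the other Ku subunit), Xrcc4 (the partner of Lig4) and Prkdc (the kinase that Ku recruits) had ratios of -0.05, -0.03 and 0.02. Prkdc had its highest pair ratio in pair 5, 0.69, and its lowest in pair 4, -0.37.

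In base excision and single-strand break repair, Xrcc1 and Parp2 varied least of the constitutive members after Rnf168. Xrcc1 (chromosome 7, 24546289 to 24573440, plus strand), the scaffold of this pathway, had between 810 and 1012 normalized counts in WT (median 910) and between 831 and 1082 in OE/OE (median 895), with a log2 ratio of 0.04 and a standard error of 0.07 (exact sign-flip p = 0.375). Parp2 (chromosome 14, 50807841 to 50821301, plus strand), which with Parp1 adds poly(ADP-ribose) at strand breaks, had between 431 and 552 in WT (median 475) and between 425 and 497 in OE/OE (median 465), with a ratio of -0.06 and a standard error of 0.08 (exact sign-flip p = 0.297). Apex1 (chromosome 14, 50924968 to 50927139, plus strand), the endonuclease that cuts at sites that have lost a base, was the constitutive member with the widest range. It had between 652 and 1372 normalized counts in WT (median 1103), 3022 in the OE/OE mouse of pair 4 and between 567 and 1191 in the other 6 OE/OE mice. The fitted ratio of Apex1 was -0.0027 with a standard error of 0.18 (exact sign-flip p = 1.00), and 61.7% of its exon bases are shared with Pip4p1 on the opposite strand, so its level is uncertain. Ung, which removes uracil from DNA, also stood out in that mouse, at 252 normalized counts beside 58.2 to 124 in the other 6. Ogg1, the glycosylase for oxidized guanine, had the lowest ratio of the constitutive class, -0.26 with a standard error of 0.14 (exact sign-flip p = 0.125), lower in 4 of 7 pairs, and Parp1 had a ratio of 0.14.

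Xpc (chromosome 6, 91489305 to 91515888, minus strand), the damage sensor of nucleotide excision repair whose protein is a known substrate of Usp22, had between 564 and 816 normalized counts in WT (median 695) and between 562 and 821 in OE/OE (median 696). The groups covered nearly the same range, and the log2 ratio was -0.0033 with a standard error of 0.10 (exact sign-flip p = 0.969; 95% interval -0.23 to 0.22). These are transcripts, and the protein was not measured here. Xpa (a damage verifier), Ercc1 (part of an excision nuclease) and Ercc2 (a helicase) had ratios of 0.01, 0.08 and -0.01. Of the exon bases of Ercc2 42.7% are shared with Gm26852 on the opposite strand, so its level is uncertain as well. In mismatch repair, Msh6 (chromosome 17, 87975062 to 87990892, plus strand), which recognizes single mispaired bases, had between 1128 and 1545 normalized counts in WT (median 1222) and between 904 and 1610 in OE/OE (median 1288). Its ratio was -0.02 with a standard error of 0.11 (exact sign-flip p = 0.875), and although listed as proliferation-linked it was as steady as the constitutive genes, with a WT range of 1.37-fold. Pms2, which cuts the strand to be repaired, was lower in 6 of 7 pairs with a ratio of -0.19 and a standard error of 0.12 (exact sign-flip p = 0.0781).

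The classes differed in level and in spread between mice of one genotype. Per kilobase of exon, the mean WT level had a median of 14.9 normalized counts over the proliferation-linked members, from 5.49 for Exo1 to 298 for Msh6. Over the constitutive members it was 125, from 12.1 for Rnf8 to 741 for Apex1, beside 130 over all genes. Both of these genes share exon bases with another gene, 13.2% for Rnf8 (Gm28043, same strand) and 61.7% for Apex1, so their levels are uncertain. The SD of log2 levels between WT mice had a median of 0.57 in the proliferation-linked class and 0.25 in the constitutive class, beside 0.35 over all genes. The range of the 7 pair ratios had a median of 2.52, 0.77 and 1.04 in the same order. No test was made of this difference between classes, since the lists were chosen with results of these mice known.

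Pair 4 widened the proliferation-linked class. In the other 6 pairs the class was still wider than the constitutive one, with median standard errors of 0.16 and 0.10. All 19 proliferation-linked members had their highest pair ratio in pair 4, beside 11 of the 27 constitutive members and 31.4% of all genes. In that pair the log2 ratio was above 1 for 15 of the 19 and for 1 of the 27, Apex1, beside 1052 of all 16124 genes. In OE/OE, the mouse of pair 4 was the highest for 15 of the 19 (31.7% of all genes), and its WT littermate was the lowest WT mouse for 11 of the 19 (20.2% of all genes), so both mice of the pair contributed. The highest WT mouse was that of pair 6 for 14 of the 19 (11.7% of all genes). Averaged over the 19 members, the log2 ratio was 1.91 in pair 4, 0.15 in pair 8, -0.07 in pair 7, -0.35 in pair 6, -0.47 in pair 5, -0.51 in pair 3 and -0.70 in pair 1. The number of members higher in OE/OE was 19 in pair 4, 13 in pair 8, 7 in pair 7, 3 in pair 5, 2 in pair 3, 1 in pair 6 and 0 in pair 1. Averaged over the 27 constitutive members, the ratio stayed between -0.12 and 0.24.

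**Figure D3:**
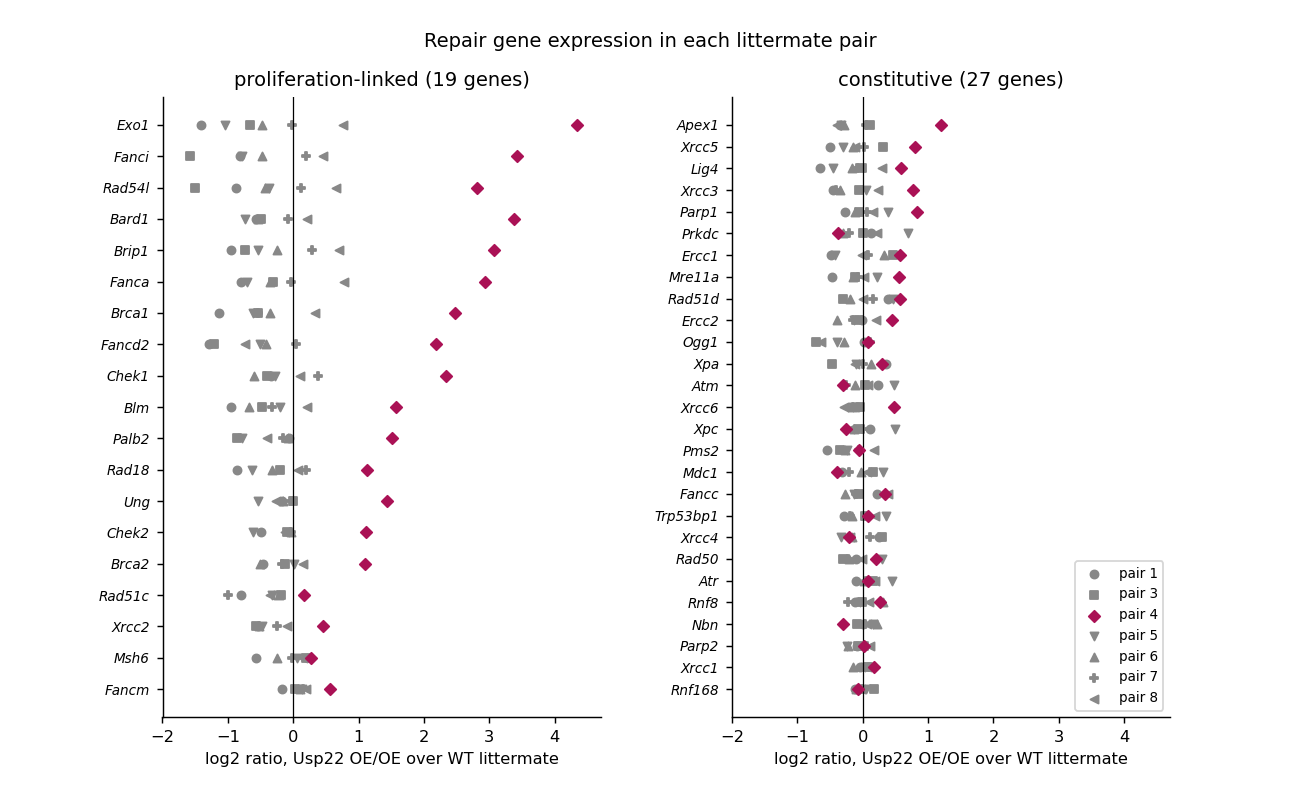
Log2 ratio of OE/OE over the WT littermate (x axis) in each of the 7 pairs for every member, ordered by the range of its ratios, with pair 4 in red and the other pairs in grey. Pair 4 is the highest pair for all 19 proliferation-linked members, reaching 4.34 for Exo1, while the constitutive members stay between -0.72 and 1.20.

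Markers of cycling cells and of other cell types moved in the same pair. A list of 25 genes of mitosis, none of them a member (Mki67, Top2a and Cdk1 among them), had a summed level between 1870 and 15089 normalized counts in WT and between 1965 and 28375 in OE/OE, with no gene at 0. The lowest sum in WT and the highest in OE/OE were those of pair 4, in which 24 of the 25 genes were higher in OE/OE. Averaged over the 25 genes, the log2 ratio was 0.06 ± 2.26 (SD, n = 7 pairs; exact sign-flip p = 0.953), being 4.80 in pair 4 and between -2.05 and 0.37 in the others. All 8 endothelial markers were lowest in the OE/OE mouse of pair 4, where their sum was 18741 normalized counts, beside a median of 65827 in OE/OE and a range of 53307 to 78994 in WT. All 8 adipocyte and all 8 macrophage markers were lower in OE/OE in pair 4 as well, where the WT mouse had the highest WT sum of both lists (34249 and 7140). The macrophage sum of the OE/OE mouse, 5783, was above the OE/OE median of 5430. The sum of 8 luminal hormone-sensing markers (Esr1 and Pgr among them) was the lowest of OE/OE in that mouse, at 67317, with 5 markers lower and 3 higher than in its littermate. Over all pairs the adipocyte list was lower in OE/OE in 6 of 7 (mean log2 difference -0.91 ± 0.84, SD, n = 7 pairs; exact sign-flip p = 0.0469, adjusted p = 0.312 over 10 lists), with sums between 12501 and 34249 in WT and between 9573 and 32337 in OE/OE. The part of these cell types in the ratios of the members was not tested beyond the covariates given next.

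Without pair 4, nearly all proliferation-linked members lay below 0. Every pair was left out in turn, and pair 4 is singled out here after its values had been seen. It was the highest pair for all 19 members, so leaving it out lowers each of their ratios. The p-values without it are therefore not independent support. In the fit of the other 6 pairs 18 of the 19 had a log2 ratio below 0, beside 8220 of all 16124 genes. The exception was Fancm. The class median was -0.37, while the constitutive median was -0.01. Of the 46 members 7 were then called, all lower in OE/OE (15.2%), beside 8.47% of all genes (3.98% lower and 4.49% higher). Xrcc2 (-0.41) and Rad51c (-0.48) were lower in each of the 6 pairs, for an exact sign-flip p of 0.0312, the smallest that 6 pairs allow. Pair 4 was the only pair in which either was higher, so this p followed from leaving it out. Fancd2 (-0.69), Brca1 (-0.47) and Blm (-0.41) were lower in 5 of the 6 (exact sign-flip p = 0.0625, 0.0625 and 0.0938), and Ogg1 (-0.32) and Apex1 (-0.20) in 4 (exact sign-flip p = 0.125 for both). No member had an adjusted p under 0.05. The mitosis markers were also below 0 on average in these 6 pairs, at -0.73 ± 0.94 (SD, n = 6 pairs; exact sign-flip p = 0.156). A further fit kept all 7 pairs and took the mean log2 level of the 25 mitosis markers as a covariate. The median standard error of the proliferation-linked class was then 0.14 in place of 0.27, and 16 of its 19 intervals lay within 1.5-fold. Over all genes that share was 75.5% in place of 68.8%. In that fit 2 members were called, both lower, Xrcc2 (-0.29) and Rad51c (-0.40), beside 6.36% of all genes (3.26% lower and 3.09% higher). With the adipocyte list as the covariate 13 members were called, all lower in OE/OE, beside 17.9% of all genes (7.99% lower and 9.90% higher). In that fit the median ratio of the proliferation-linked class was -0.74 in place of 0.00029, and its median standard error 0.32 in place of 0.27. All 19 members lay below 0, beside 8514 of all 16124 genes, and 10 of the 19 were called. The adipocyte list was itself lower in OE/OE in 6 of 7 pairs, most so in pair 4 (mean log2 difference -2.22). Its part in these ratios therefore cannot be told apart from that of genotype or of pair 4. The constitutive median in that fit was -0.12, and 19 of the 27 intervals lay within 1.5-fold in place of 27. Over all genes that share was 46.9% in place of 68.8%.

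Levels of 12 of the 19 proliferation-linked members in WT and of 7 in OE/OE followed the mitosis markers from mouse to mouse at an unadjusted threshold, and none did after adjustment. This comparison was chosen after the values had been seen, and it used the mean log2 level of the 25 markers as a score, which ran from 5.04 to 8.90 in WT and from 5.54 to 9.84 in OE/OE. In WT the level rose with the score at an exact permutation p of 0.05 or less for 12 of the 19 proliferation-linked members and for 1 of the 27 constitutive members, Xrcc3, beside 2.64% of the 16099 genes tested. In OE/OE it did so for 7 of the 19 and for 3 of the 27, Rad51d, Xrcc3 and Ogg1, beside 6.03% of genes. The 7 members that followed in both genotypes were Brca1, Bard1, Brip1, Rad54l, Fancd2, Fanci and Exo1, and with Xrcc3 they made 8 of 46 members, beside 1.13% of genes. No member fell with the score at this threshold in either genotype, beside 1.78% of genes in WT and 4.62% in OE/OE. None had an adjusted p under 0.05 over these genes, the smallest being 0.145 in WT and 0.256 in OE/OE.

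For Exo1 in WT, Pearson's r with the score was 0.987 (exact permutation p = 0.000198) and Spearman's rho was 1.00 (exact p = 0.000397), and r was 0.990 without the mice of pairs 4 and 6, the farthest from the median score. In OE/OE r was 0.937 (exact p = 0.00536) and rho 0.857 (exact p = 0.0238), but r was 0.486 without the mice of pairs 4 and 6. Fanci in OE/OE kept its relation, with r = 0.990 (exact p = 0.000397), rho = 0.964 (exact p = 0.00278) and r = 0.955 without these mice. Brca1 had r = 0.907 in WT (exact p = 0.00238; rho 0.929, exact p = 0.00675), which was 0.830 without the outer mice, and r = 0.888 in OE/OE (exact p = 0.0127; rho 0.607, exact p = 0.167), which was 0.104 without them. Without the outer mice, r was above 0.6 for 10 of the 13 members that followed in WT and for 3 of the 10 in OE/OE (Bard1, Rad51d and Fanci). For the other 7 in OE/OE, r without these mice was no higher than 0.6. In OE/OE the mice left out had the highest scores (9.84 and 8.53), and the other scores ran from 5.54 to 7.38. In WT they had the lowest and the highest score (5.04 and 8.90). A narrower range of scores can itself lower r, so the counts of WT and OE/OE are not like for like. Among the proliferation-linked members 7 followed the score in neither genotype, namely Palb2, Rad51c, Xrcc2, Fancm, Ung, Msh6 and Rad18. Their r was between 0.127 and 0.760 in WT and between -0.43 and 0.714 in OE/OE. Rad51c, the member called lower in OE/OE, had r = 0.204 in WT (exact p = 0.656).

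**Figure D4:**
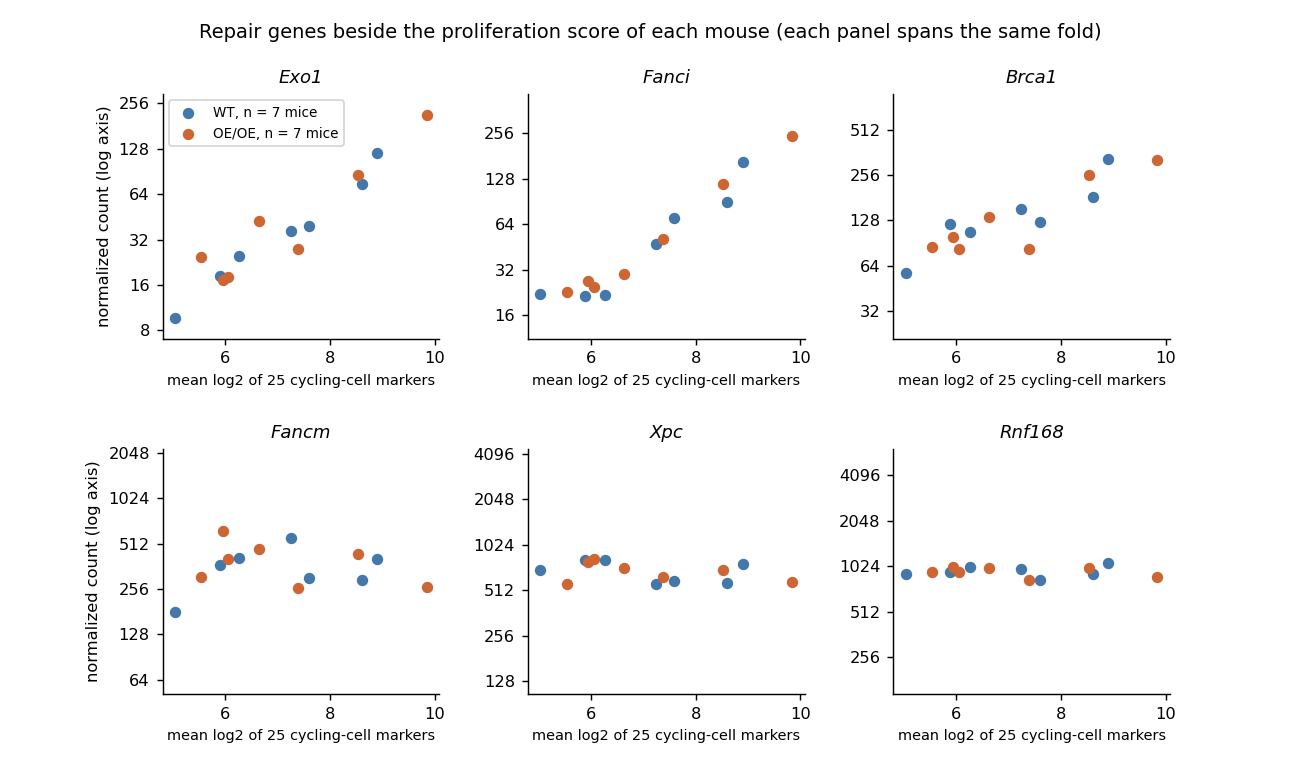
Normalized counts of 6 members (y axis, log scale, each panel spanning the same fold) beside the mean log2 level of 25 mitosis markers (x axis) in 7 WT and 7 OE/OE mice. Exo1, Fanci and Brca1 rise with the score in WT, Fancm shows no such rise, and Xpc and Rnf168 run flat in both genotypes.

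In pairs 5 and 8 the ratios of the constitutive members went with exon length, as those of all genes did. In pair 5 the log2 ratio was correlated with exon length across all 16124 genes (Spearman's rho 0.349) and across the 27 constitutive members (rho 0.549), and the same held in pair 8 (0.340 and 0.527). In the other 5 pairs rho was between -0.07 and 0.01 over all genes and between -0.44 (pair 7) and 0.17 over the constitutive members, with -0.39 in pair 4. Over the 19 proliferation-linked members rho was 0.430 in pair 8 and 0.05 in pair 5, with a range from -0.28 to 0.29 elsewhere. These correlations are across genes, which are not independent replicates. Of the 14 constitutive members with over 5000 exon bases, 10 were higher in OE/OE in pair 5 and 12 in pair 8, with median ratios of 0.30 and 0.13. Of the 13 shorter ones 4 were higher in each of these pairs, with medians of -0.15 and -0.03. In OE/OE, the mouse of pair 5 was the highest for 10 constitutive members (24.4% of all genes), Atm, Atr, Mre11a, Rad50, Trp53bp1, Prkdc, Ercc2, Pms2, Mdc1 and Rnf168. Over all genes that were highest in this mouse the median exon length was 6902 bases, beside 3140 for those highest in the OE/OE mouse of pair 4. RNA quality was not among the labels, and its part was not tested.

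Members near the transgene were examined separately, since they share a chromosome region with ROSA26 (Gt(ROSA)26Sor, chromosome 6, 113067428 to 113077333). Ogg1 (113326972 to 113335068), Rad18 (112619850 to 112696686) and Fancd2 (113531682 to 113597017) lie 0.250, 0.371 and 0.454 Mb from it. Their log2 ratios were -0.26, -0.09 and -0.28, and they were lower in 4, 4 and 5 of the 7 pairs (exact sign-flip p = 0.125, 0.734 and 0.578). Xpc, on the same chromosome, lies 21.6 Mb away. Alleles carried along with the transgene from the R1 embryonic stem cells in which it was targeted cannot be told apart from its effect for these genes.

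Other genes of DNA repair, listed from general knowledge, were read from the same fit. Of the 81 that were measured, 2 were called (1 higher and 1 lower), beside 3.81% of all genes, none with an adjusted p under 0.05, and the median ratio of the 81 was -0.0083. In all 7 pairs 3 of the 81 changed the same way, beside 1.51% of all genes. They were Msh3, Fancg and Uimc1, the last higher at a ratio of 0.09 with a standard error of 0.07 and not called. Msh3, a mismatch sensor, was higher in OE/OE in all 7 pairs, at 348 ± 40.9 normalized counts in OE/OE mice against 299 ± 32.7 in their WT littermates (SD, n = 7 mice), a log2 ratio of 0.22 and a standard error of 0.08 (exact sign-flip p = 0.0156). Fancg, of the Fanconi core complex, was lower in all 7 pairs, at 298 ± 49.7 normalized counts against 354 ± 56.1 (SD, n = 7 mice), a ratio of -0.25 and a standard error of 0.10 (exact sign-flip p = 0.0156). Neil3, a glycosylase of replicating cells, had the widest range of pair ratios in this list, 7.97, with 4.66 in pair 4. Without pair 4 the number called was 11, of which 10 were lower, beside 8.47% of all genes (3.98% lower and 4.49% higher).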

How the data were processed

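The authors sequenced poly(A) RNA of 14 MEC preparations (collagenase and hyaluronidase digestion, differential centrifugation), mapped paired reads to mm10 with TopHat 2.0.10, counted fragments on GENCODE M21 genes with HTSeq 0.6.0, dropped genes that did not reach 10 fragments in 7 libraries, and deposited counts divided by DESeq 1.18.0 size factors, pooling no samples. These deposited values are a signal, a normalized count on a linear scale. In every library 100% of values were whole multiples of 1 fragment (tolerance 0.01), which gave the depth and allowed count tests.

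Members, classes and lists were chosen with earlier results of these data known. The main test was limma 3.58.1 (R 4.3.3, with trend) on log2(normalized count + 1), which understates changes of low genes, with the littermate pair as a block; it replaced the per-gene paired test of the study, whose unadjusted threshold of 0.05 was kept beside Benjamini-Hochberg adjustment over all 16124 genes. Single values were tested by exact two-sided sign flips of the 7 pairs (128 patterns). Littermates deviated together from their genotype means (correlation across genes 0.171 to 0.748, median 0.522, in all 7 pairs, beside a median of -0.151 over 42 other combinations), and the labels give the pair numbers. The closest libraries differed by a chi-square of 30.3 per gene.

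Full values were given for members called, members changed the same way in 7 pairs, the 3 widest and 3 narrowest members of each class by range of pair ratios, and Brca1, Brca2, Xpc, Atm, Chek1, Rnf8 and Rnf168. Alternatives were DESeq2 1.42.0 and edgeR 4.0.16 (quasi-likelihood) on recovered fragments, pseudocounts of 0.1 and 10, a mean of at least 50 normalized counts, median centring, no block, covariates from marker lists, and leaving out every pair in turn. The relation to the proliferation score and that to exon length were added after the values were seen. The limma fit was tested on simulated counts without a littermate effect or an outlying pair, so that test does not cover either. Positions and exon lengths are from GENCODE M21 (GRCm38), to which all 16124 identifiers matched, and promoter windows from RefSeq (GRCm38.p6).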

Additional observations from a re-analysis of the deposited data

Results flagged for a closer look

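Each member, the mean log2 level of each class and the proliferation score were examined in each genotype for a mouse standing apart from the other 6, dividing its gap to the nearest mouse by the whole range of that genotype (critical value 0.568). Of 98 groups 1 exceeded it, where 4.9 are expected at 1 in 20. Chek1 in OE/OE had a gap of 0.787 of its range, from 213.9 normalized counts in the mouse of pair 4 to 82.0 in the next. Many of these groups share mice and co-varying genes, so they are not independent.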

How the results depend on the processing

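Of the log2 ratios of single members under the alternatives, 797 kept their side of the threshold, of which 113, none of them called, changed sign (16 with the adipocyte score as a covariate, 15 without pair 4, 13 with the pan-epithelial score). A further 16 gained a call, 11 lost one, all Rad51c, and 3 reversed with a call, all with the adipocyte score as a covariate (Fanca -0.94, Exo1 -1.52, Xrcc5 -0.38). The cause was not tested. The main numbers called were 614 of all genes, 1 of 46 members and 2 of 81 other repair genes. Without the replicate block, that is without the pairing, 182 genes, 0 members and 0 other repair genes were called. In the order genes, members and other repair genes, the adipocyte score as a covariate gave 2885, 13 and 12, and the pan-epithelial score 408, 0 and 1. The proliferation score gave 1025 genes and 2 members. Members called were 0 in edgeR, in DESeq2 and above a mean of 50 normalized counts, and other repair genes called were 5 by the per-gene paired test. Leaving out each pair in turn gave 381 (without pair 6) to 1366 genes (without pair 4; 1196 without pair 1), 0 to 7 members (7 without pair 4) and 0 to 11 other repair genes (11 without pair 4). The mean log2 ratio of the mitosis markers ran from -0.73 (without pair 4) to 0.41. Members that followed the proliferation score were 7 (without pair 6) to 15 in WT, beside 13 with all mice, and 4 (without pair 4) to 17 (without pair 1) in OE/OE, beside 10 (6 without pair 6). Palb2, Exo1, Fanci and Brip1 had libraries with 11 to 15 fragments, where 1 fragment shifts a ratio most.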
